A study of Danio rerio with 40 samples.

Results

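miR-146a, miR-146b and miR-155 were 3 of the 346 mature miRNAs in the miRNA table deposited for sperm of zebrafish males. They were found as every entry of the table named as a form of miR-146 or miR-155. The rule used names and no measured value, but the members were chosen with earlier results of these data known. The table held 39 libraries, with 10 of High2, 10 of High1, 9 of Low2 and 10 of Low1. All males were adults of the AB strain (genotype WT in the record), and each was kept with a rival male and a female (High) or alone with a pair of females (Low), in a random order of both treatments. High2 sperm was taken after a High treatment that followed a Low one, High1 sperm after a High treatment that came first, Low2 sperm after a Low treatment that followed a High one, and Low1 sperm after a Low treatment that came first.

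The groups followed the prefix of the sample titles, read as Ha for High1, Hb for Low2, La for Low1 and Lb for High2. The titles do not spell this reading out. The treatment field of the public record named another group for 22 of the 39 libraries, 9 of High2, 1 of High1, 8 of Low2 and 4 of Low1, so each comparison was also made with those labels. That field named most High2 libraries Low2 and most Low2 libraries High2. The direction of comparisons with either group therefore rests on how the titles are read. RNA was extracted from each sperm sample by itself. A library is named here by its group and number, and that a number shared by High2 and Low1, or by High1 and Low2, stands for 1 male is an assumption. Number 10 of the High-first males (High1 and Low2) was uncertain, since a count table of the study has a repeated heading for it, and each comparison was repeated without it.

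Total miRNA reads ranged from 79435 to 8447142 per library with a median of 2309542, and 4 libraries, 2 of Low2 and 2 of Low1, had fewer than 500000. The median total was 3152946 for High2, 1182396 for High1, 2218558 for Low2, and Low1 libraries had a median of 2641870.5. Whole read numbers could be recovered from every deposited value. Levels are given as normalised reads, which are reads divided by the size factor of the library, and differences as log2 of normalised reads plus 4, the scale of the table. Depth covers counting error only, because without molecular identifiers several reads can stem from a single molecule.

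Mature miRNAs guide Argonaute proteins to matching sites in messenger RNAs, which lowers their translation or stability. In mammals, miR-146a is transcribed downstream of NF-kappaB after Toll-like receptor signals and represses the signalling proteins TRAF6 and IRAK1, a negative feedback on inflammation. In mammals, miR-155 is cut from the transcript of a host gene that is induced in activated B cells, T cells and macrophages, and SOCS1 is among its targets. Blood cells, epithelium and other somatic cells can contribute RNA to a sperm sample, and in a bulk sample fewer cells of a type and less RNA per cell cannot be told apart.

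In the RefSeq annotation of the zebrafish assembly GRCz12tu, which is not the build used for these libraries and from which only gene names and order were taken, each miRNA gene stood apart from other genes. The gene mir146a lay next to sufu, which encodes a repressor of Hedgehog signalling. The gene dre-mir-146b-1 lay between pcyox1l and a long non-coding RNA gene followed by ppp2r2bb, a regulatory subunit of protein phosphatase 2A. The gene mir155 had mrpl39, a mitochondrial ribosomal protein gene, and then jam2a, a junctional adhesion molecule gene, on the same side. The pair of miR-146 genes therefore did not neighbour each other.

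All 3 miRNAs were detected in 39 of 39 libraries, at levels far apart. By mean level over the libraries miR-146b was 23rd, miR-146a 37th and miR-155 109th of 346 miRNAs. In the median library miR-146b made up 0.566% of all miRNA reads, miR-146a 0.182% and miR-155 0.00897%. The lowest read numbers were 357 for miR-146b and 64 for miR-146a, both in Low1_1, and 3 for miR-155 in the same library. These 3 reads corresponded to 37.8 RPM (reads scaled to a fixed library total) with an exact 95% binomial interval of 7.79 to 110. In Low1_5 the 2917 reads of miR-155 corresponded to 390 RPM with an interval of 376 to 404. Counting error was therefore far larger for miR-155 in a shallow library than in a deep one.

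miR-146a varied widely within each group. In High2 it ranged from 1086 normalised reads (High2_4) to 8302 (High2_5) with a median of 4289. In High1 it ranged from 1574 (High1_8) to 12280 (High1_4) with a median of 2945. In Low2 it ranged from 1564 (Low2_3) to 8467 (Low2_8) with a median of 3066, and in Low1 from 1551 (Low1_2) to 7593 (Low1_9) with a median of 3079. The 4 ranges overlapped over most of their length. High1 had a gap inside it, with 9014, 10465 and 12280 normalised reads in High1_6, High1_5 and High1_4 and at most 4133 in the other 7 libraries. The group means were 4449 ± 2013 (High2), 4974 ± 4016 (High1), 4111 ± 2405 (Low2) and 3917 ± 1904 (Low1), with SDs over 10, 10, 9 and 10 libraries, so no pair of means was apart by as much as 1 SD.

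miR-146b was the most abundant of the 3. In High2 it ranged from 4036 normalised reads (High2_4) to 13782 (High2_2) with a median of 9755. In High1 it ranged from 6213 (High1_8) to 54071 (High1_4) with a median of 11321. Low2 libraries ran from 5897 (Low2_6) to 17268 (Low2_1) with a median of 12828, and Low1 libraries from 8150 (Low1_4) to 14561 (Low1_9) with a median of 11707. Again the groups overlapped, and the spread of High1 came mainly from High1_4, since the next library of that group, High1_5, had 23021. Means were 9394 ± 2718 (High2), 15862 ± 14438 (High1), 11437 ± 4403 (Low2) and 11776 ± 2195 (Low1), with SDs over 10, 10, 9 and 10 libraries. In High1_4 miR-146b reached 3.49% of all miRNA reads.

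miR-155 was at the other end of the scale. In High2 it ranged from 72.9 normalised reads (High2_1) to 437 (High2_9) with a median of 139. High1 libraries ran from 58.4 (High1_1) to 365 (High1_3) with a median of 181.01. In Low2 the range was 79.0 (Low2_2) to 317 (Low2_4) with a median of 218, and in Low1 it was 92.3 (Low1_8) to 1018 (Low1_5) with a median of 154.9. The groups overlapped in their whole lower part, and Low1 reached furthest up, with Low1_5 at 1018 and Low1_7 at 550, both above the highest library of each other group. The means were 195 ± 140 (High2), 186 ± 95.7 (High1), 200 ± 82.7 (Low2) and 300 ± 289 (Low1), with SDs over 10, 10, 9 and 10 libraries. The library with the most of both miR-146 forms, High1_4, had 69.2 normalised reads of miR-155, the second lowest value of its group.

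**Figure D1:**
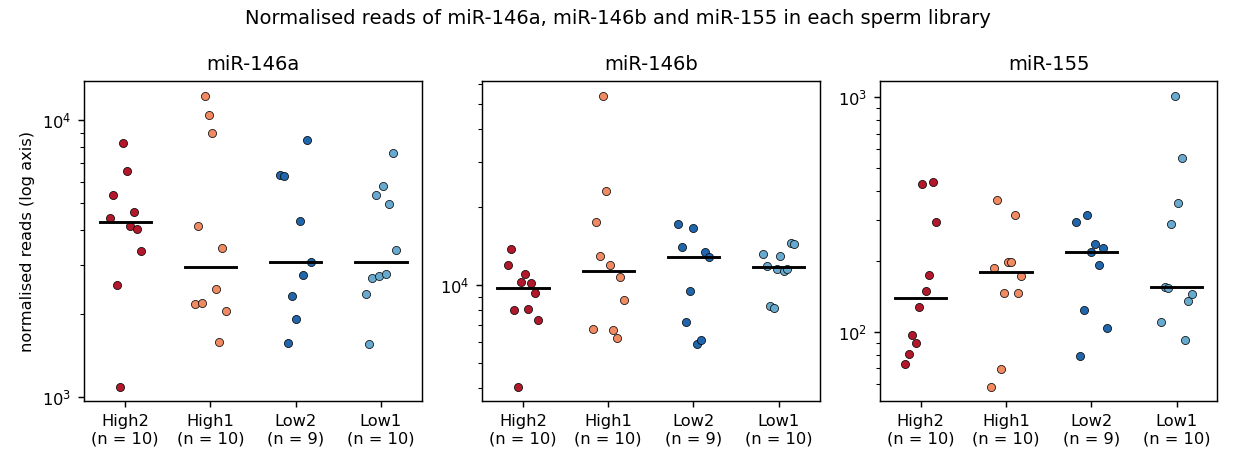
Normalised reads of miR-146a, miR-146b and miR-155 (log axes) in each sperm library of High2 (n = 10), High1 (n = 10), Low2 (n = 9) and Low1 (n = 10), where each point is a library and each line the group median. The groups overlap for each miRNA, and High1_4 stands highest for miR-146b at 54071 normalised reads and Low1_5 for miR-155 at 1018.

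Compared with other miRNAs of like abundance, the scatter between libraries was not extreme. The SD of the log2 values over 39 libraries was 0.84 for miR-146a, 0.64 for miR-146b and 0.89 for miR-155, against a median of 0.65 over all 346 miRNAs. Among the 20 miRNAs nearest in mean level the median SD was 0.66 for miR-146a, 0.57 for miR-146b and 0.91 for miR-155. Of those 20 neighbours 6 varied more than miR-146a, 7 varied more than miR-146b and 13 varied more than miR-155.

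To ask whether social treatment changed the 3 miRNAs, the 4 groups were compared with limma, with p-values adjusted by Benjamini-Hochberg over all 346 miRNAs. No member differed between the groups, with adjusted p of 0.988 for miR-146a, 0.897 for miR-146b and 0.917 for miR-155. Over the whole table limma called 0 of 346 miRNAs (0%) at an adjusted p under 0.05, in this test and in each group comparison below, and 13 (3.76%) at an unadjusted p under 0.05 in this test. With limma-voom on the recovered reads the 4-group test also called 0, with 6 at an unadjusted p under 0.05. In this fit of all 4 groups no member passed the unadjusted threshold in any group comparison below. The paper, with DESeq2, reports miRNAs as differentially expressed for High2 against Low2 and High2 against Low1, miR-10b-5p in both. None of those it names is a member, and its test was not repeated here.

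High2 was set against Low1 to follow males of the Low-first line, if numbers stand for males. miR-155 averaged 195 ± 140 normalised reads in High2 and 300 ± 289 in Low1 (SD, n = 10 each), a log2 difference of -0.48 (SE 0.40, 95% interval -1.28 to 0.32, adjusted p = 0.979 by limma). For miR-146b the difference was -0.37 (SE 0.28, interval -0.94 to 0.20) and for miR-146a it was 0.17 (SE 0.38, interval -0.60 to 0.93), both with the same adjusted p. Of all 346 miRNAs, 20 (5.78%) had an unadjusted p under 0.05 here, and limma-voom gave 12, with 0 after adjustment. With the replicate number as a block, in a fit of High2 and Low1 only, miR-146b had an unadjusted p of 0.0207 in limma (interval -0.67 to -0.07, adjusted p = 0.784). It was lower in High2 than in Low1 in 9 of 10 same-numbered pairs. In the block fit 18 of 346 miRNAs (5.2%) had an unadjusted p under 0.05 and 0 passed the adjustment. A limma fit of the same groups without the block gave miR-146b an unadjusted p of 0.0532 (interval -0.74 to 0.01, adjusted p = 0.839). The smaller p of the block fit thus came in part from leaving out High1 and Low2. Over all miRNAs, 0 of 10 Low1 libraries deviated from their group most like the High2 library of the same number. The difference of miR-155 was -0.24 without Low1_5 and -0.66 in libraries of at least 500000 reads. Its interval with all libraries still allowed a decrease of more than 1 log2 unit.

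High1 against Low2 set the samples of the High-first line side by side. The log2 differences were 0.10 for miR-146a (interval -0.68 to 0.89), 0.23 for miR-146b (-0.36 to 0.81) and -0.16 for miR-155 (-0.98 to 0.66), with an adjusted p of 0.993 by limma for each. At an unadjusted p under 0.05 there were 3 miRNAs (0.867%) in the table, and 1 by limma-voom. Both positive differences of the miR-146 forms rested on High1_4. Without that library they were -0.08 for miR-146a and -0.01 for miR-146b.

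Between different males in the same period, High1 against Low1 gave 0.11 for miR-146a (interval -0.66 to 0.87), 0.10 for miR-146b (-0.46 to 0.67) and -0.43 for miR-155 (-1.24 to 0.37). The adjusted p by limma were 0.985, 0.966 and 0.832, beside 11 miRNAs (3.18%) at an unadjusted p under 0.05 by limma and 11 by limma-voom. Without High1_4 the differences of the miR-146 forms were -0.08 for miR-146a and -0.13 for miR-146b, and without Low1_5 that of miR-155 was -0.19. In libraries of at least 500000 reads the difference of miR-155 was -0.62. High2 against Low2 gave 0.17 for miR-146a (-0.62 to 0.95), -0.24 for miR-146b (-0.83 to 0.34) and -0.20 for miR-155 (-1.02 to 0.62). The adjusted p were 0.988, 0.986 and 0.986 by limma, beside 14 miRNAs (4.05%) at an unadjusted p under 0.05 by limma and 17 by limma-voom.

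Groups of the same treatment in another order were also compared. For miR-146b, High2 against High1 gave the smallest p of the members' group comparisons in the fit of all 4 groups without a block, with a mean of 9394 ± 2718 normalised reads in High2 and 15862 ± 14438 in High1 (SD, n = 10 each). The log2 difference was -0.47 (SE 0.28, interval -1.04 to 0.10, unadjusted p = 0.101, adjusted p = 0.748 by limma), and -0.24 without High1_4 (adjusted p = 0.878). miR-146a differed by 0.06 (-0.70 to 0.83), or 0.25 without High1_4, and miR-155 by -0.04 (-0.84 to 0.76) in that comparison, in which 22 miRNAs (6.36%) had an unadjusted p under 0.05 by limma and 18 by limma-voom. Low2 against Low1 gave 0.00 for miR-146a (-0.78 to 0.79), -0.12 for miR-146b (-0.71 to 0.46) and -0.28 for miR-155 (-1.10 to 0.55), with adjusted p from 0.838 to 1 by limma, and the value of miR-155 was -0.03 without Low1_5. There too 22 miRNAs (6.36%) had an unadjusted p under 0.05 by limma, and 2 by limma-voom.

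Averaged over both orders, High minus Low was 0.14 for miR-146a (interval -0.41 to 0.68), -0.07 for miR-146b (-0.48 to 0.34) and -0.32 for miR-155 (-0.89 to 0.26), each with an adjusted p of 0.998 by limma. Without High1_4 the averages were 0.04 for miR-146a and -0.19 for miR-146b. Of all miRNAs, 4 (1.16%) had an unadjusted p under 0.05 by limma and 6 by limma-voom. The difference of miR-155 was negative in each of the 4 comparisons of a High with a Low group, but these comparisons share libraries and none passed the test, and its average was -0.20 without Low1_5. In libraries of at least 500000 reads the average was -0.53 (interval -1.14 to 0.07, unadjusted p = 0.0821, adjusted p = 0.954 by limma). By limma-voom it was -0.44 (adjusted p = 0.961). Under the treatment labels of the public record, the sign of the High minus Low difference of miR-146b turned to 0.26, with an adjusted p of 0.865.

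**Figure D2:**
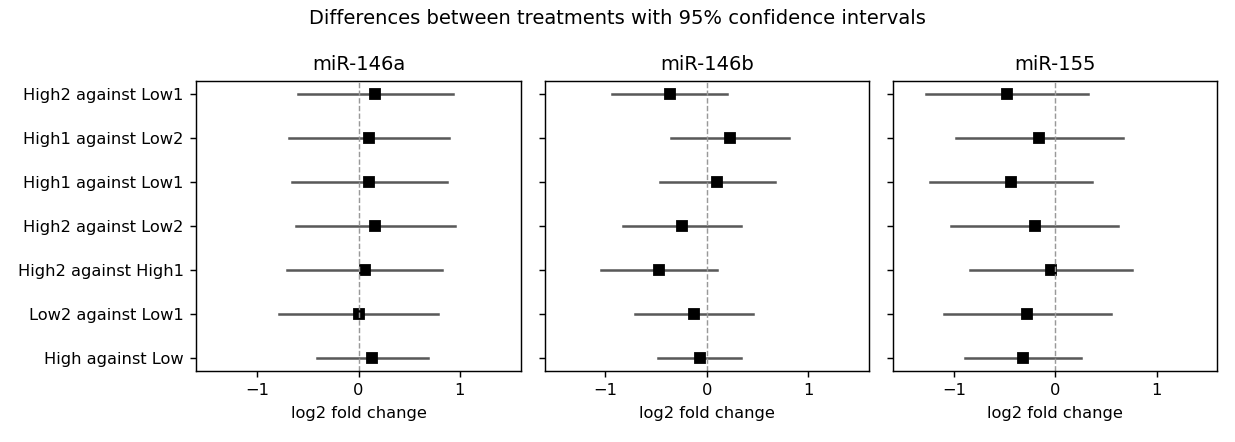
Log2 fold changes of miR-146a, miR-146b and miR-155 (squares) with 95% confidence intervals from limma (lines) for the 7 comparisons of treatment groups, the first group named being on top of the fold change. Every interval spans 0, and the lowest bound is that of miR-155 for High2 against Low1, at -1.28.

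Samples had been combined into 5 sequencing pools of 8, as the sample descriptions name them. The miRNA table held 7 or 8 libraries of each pool, and in it each pool had libraries of every group. A test of the pools was added after the data were seen, as the pool terms of a limma fit that also held the group. miR-155 differed between pools with an adjusted p of 0.0166, in a table where 65 of 346 miRNAs (18.8%) were called and 120 (34.7%) had an unadjusted p under 0.05. miR-146a (adjusted p = 0.103) and miR-146b (adjusted p = 0.222) were not called. Differences between pools were common in this table and not particular to miR-155.

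The medians of miR-155 in pools 1 to 5 were 160, 124.1, 119, 292 and 265 normalised reads. The 7 libraries of pool 2 lay between 58.4 and 156 and the 8 of pool 5 between 150 and 550, so that these pools met only at their edges. Pool 4 held both Low1_5 at 1018 and Low2_2 at 79.0. For miR-146a the medians were 3786, 2699, 2330, 6310 and 3065, highest in pool 4. For miR-146b they were 12178, 11848, 11632, 12470 and 6989, lowest in pool 5. miR-146a was called between pools without High1_4, at an adjusted p of 0.0195 by limma, and in libraries centred on their median, at 0.0483. It was not called under the other alternatives, with an adjusted p of 0.203 in libraries of at least 500000 reads and 0.592 with pools set by library number. The adjusted p of miR-155 lay between 0.00813 and 0.0415 over all alternatives, and was 0.0243 without Low1_5.

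Within pools, High minus Low kept no common sign for the miR-146 forms. The differences of log2 means in pools 1 to 5 were -0.42, 0.49, 0.73, 0.75 and -0.13 for miR-146a and -0.19, 0.04, -0.11, 0.22 and 0.00 for miR-146b. For miR-155 they were 0.34, -0.98, -0.66, -0.38 and -0.17, lower in High in 4 of 5 pools, with 3 to 5 libraries on a side. With pool as a covariate in the limma fit the members' adjusted p over all group comparisons lay between 0.653 and 0.997. What in the pools moved with miR-155 was not tested.

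**Figure D3:**
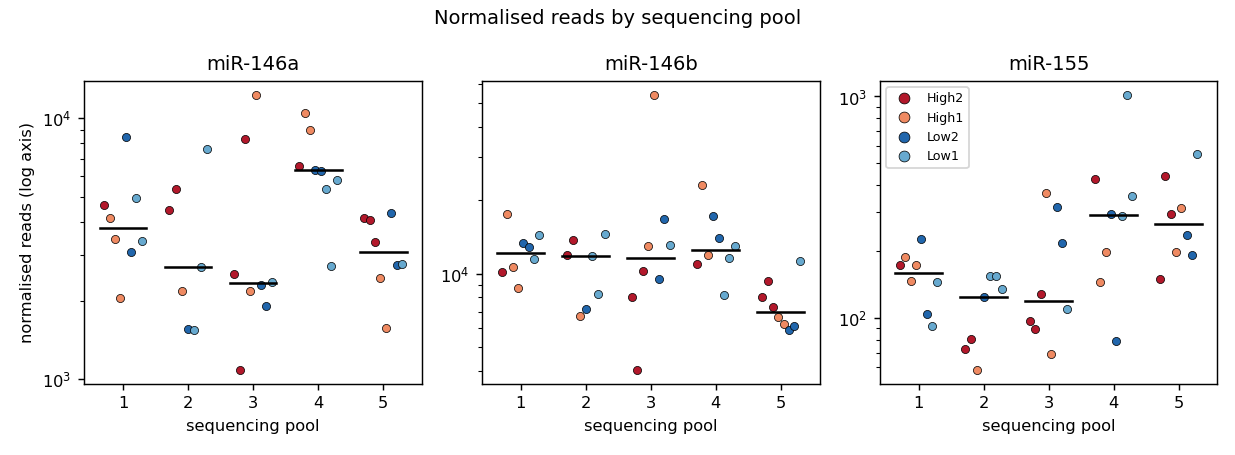
Normalised reads (log axes) of miR-146a, miR-146b and miR-155 by sequencing pool, where each point is a library coloured by group and each line the pool median. The medians of miR-155 are 292 and 265 in pools 4 and 5 and between 119 and 160 in pools 1 to 3.

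Because both forms are counted in the same library, their ratio does not depend on scaling. miR-146b outnumbered miR-146a in 39 of 39 libraries, from 1.24-fold in High2_5 to 8.75-fold in Low2_5 with a median of 2.72. The median ratio was 2.24 for High2 and 3.53 for High1, against 2.72 for Low2 and 3.58 for Low1. The groups did not differ beyond the spread of libraries in a permutation test (100000 resamples, p = 0.255, adjusted p = 0.510 over the 2 ratios). The highest ratio was 3.72 for High2 and 5.96 for High1, against 8.75 for Low2 and 7.64 for Low1, a difference in range that was noticed in the data and not tested by itself.

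Reads of miR-155 were between 0.104% (High1_4) and 7.12% (Low1_5) of the summed miR-146 reads, with a median of 1.17%. Group medians were 1.201% for High2 and 0.990% for High1, against 1.25% for Low2 and 1.28% for Low1, and the permutation test gave p = 0.791 between the groups (adjusted p = 0.791). Between pools both ratios passed the 0.05 threshold, in permutation tests added after the data were seen. These tests were not repeated under the alternatives. Pools accounted for 29.2% of the variance of the log2 ratio of miR-155 to miR-146 (p = 0.0154, adjusted p = 0.0308) and for 24.2% of that of miR-146b to miR-146a (p = 0.0470, adjusted p = 0.0470).

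The pair of miR-146 forms varied together between libraries, and miR-155 varied with neither. For miR-146a with miR-146b Pearson's r was 0.61 over 39 libraries (permutation p = 5e-05, adjusted p = 0.00015 over 3 relations) and Spearman's rho was 0.50 (permutation p = 0.00147). Without High2_4 and High1_4, the libraries farthest from the median of miR-146a, r was 0.46 (permutation p = 0.00483). It was positive within each of the 5 pools, from 0.24 to 0.72, and 0.60 over the 35 libraries of at least 500000 reads. By group it was 0.87 within High2 and 0.83 within High1, against 0.37 within Low2 and 0.11 within Low1, a difference between groups that was not tested. High2_4 and High1_4 each lay in a High group, and r within groups was not computed without them. Within High2 both forms also rose with library depth, as given below, and High2_4 was the shallowest library of that group.

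For miR-155, r was -0.07 with miR-146a (permutation p = 0.674, rho -0.06) and -0.11 with miR-146b (permutation p = 0.503, rho -0.11), both with an adjusted p of 0.674. Leaving out the same 2 libraries gave -0.06 and -0.04. Within pools the sign changed, from -0.73 to 0.29 with miR-146a and from -0.40 to 0.66 with miR-146b.

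**Figure D4:**
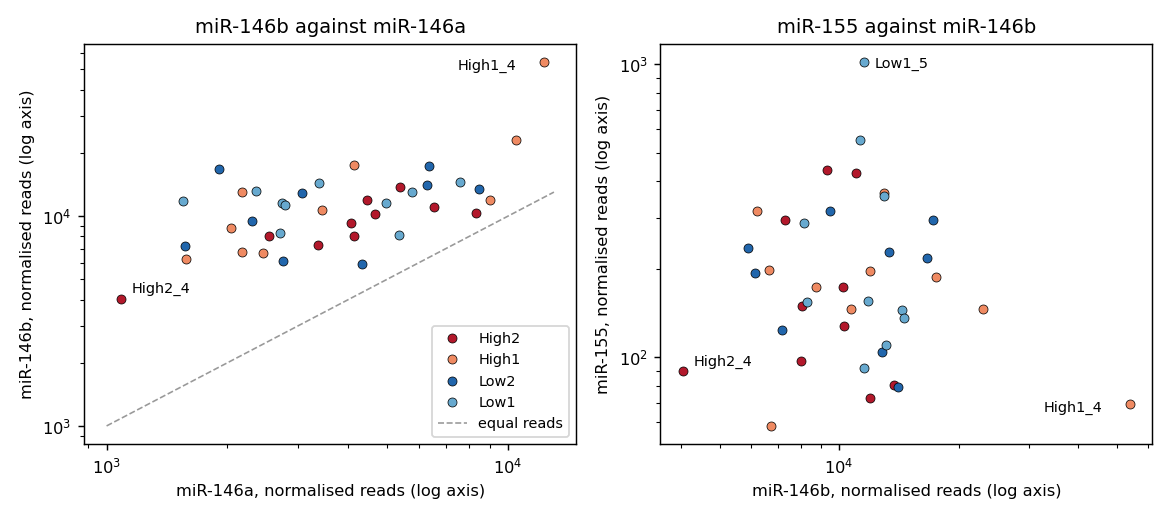
miR-146b against miR-146a, and miR-155 against miR-146b, in normalised reads on log axes, with a point per library coloured by group and a dashed line at equal reads. All 39 libraries lie above the line of equal reads, High1_4 and High2_4 form the ends of the relation of both miR-146 forms (r = 0.61), and miR-155 shows no such relation with miR-146b (r = -0.11).

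Library depth was compared with the levels as well. The log2 value of miR-155 had r = 0.35 with depth (permutation p = 0.0301, adjusted p = 0.0904 over 3 relations, rho 0.31), and r = 0.32 (permutation p = 0.0496) without the shallowest pair, Low2_3 and Low1_1. The value was 0.29 in libraries of at least 500000 reads and ranged from -0.34 to 0.83 within pools. For miR-146a r was 0.28 (permutation p = 0.0888, rho 0.25) and for miR-146b 0.10 (permutation p = 0.555, rho 0.15). Over all libraries no relation with depth passed the adjustment. Within High2, r with depth was 0.79 for miR-146a and 0.87 for miR-146b. In High1, Low2 and Low1 it was 0.08, 0.34 and 0.22 for miR-146a and -0.29, 0.41 and 0.18 for miR-146b. These values by group were not tested.

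For each member the 5 miRNAs with the most similar pattern were found by Pearson's r of the deposited log2 values over 39 libraries, among 331 miRNAs, as a description. Closest to miR-146a were dre-miR-141-3p (r = 0.59), dre-miR-1388-3p (0.53), dre-miR-153a-5p (0.50), dre-miR-200c-3p (0.49) and dre-miR-1388-5p (0.49). miR-141 and miR-200c belong to the miR-200 family, which is abundant in epithelium. The median library had 0 reads of dre-miR-153a-5p. Over all 331 miRNAs the median r with miR-146a was -0.01.

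Closest to miR-146b were dre-miR-24 (r = 0.69), dre-miR-100-2-3p (0.61), dre-miR-206-3p (0.59), dre-miR-138-3p (0.53) and dre-miR-7147 (0.51), of which the last 2 had 0 reads in the median library. miR-206 is a miRNA of skeletal muscle. The sum of the muscle miRNAs described below had r = 0.27 with miR-146b (permutation test, adjusted p = 0.387), and 0.07 without High1_4 and High1_9. Over all 331 miRNAs the median r with miR-146b was -0.03. Closest to miR-155 were dre-miR-2189 (r = 0.53), dre-miR-31 (0.48), dre-miR-25-3p (0.48), dre-miR-7a (0.46) and dre-miR-196b (0.44), where the median was 0.03. All 5 were more abundant than miR-155, with median levels from 1214 normalised reads for dre-miR-196b to 463537 for dre-miR-2189. No miRNA stood in more than 1 of the 3 sets.

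Other miRNAs linked with inflammation or immune cells, 41 entries of the families miR-9, miR-21, miR-125, miR-132, miR-142, miR-150, miR-181, miR-212, miR-221, miR-222, miR-223, miR-462 and miR-731, were counted beside the members. The limma test called 0 of 41 in every group comparison after adjustment over all miRNAs. At an unadjusted p under 0.05, miR-181d-5p, of a family best known for tuning T cell receptor sensitivity in mice, had log2 differences of -0.41 for High2 against Low1 (adjusted p = 0.817), -0.59 for High1 against Low1 (adjusted p = 0.408) and -0.36 for High against Low (adjusted p = 0.998). In High1 against Low1, miR-181b-3p also had such a p (-0.13, adjusted p = 0.774). The limma test of Low2 against Low1 gave miR-181b-3-3p (0.35) and miR-221-3p (0.64), both with an adjusted p of 0.577. High1 against Low2, High2 against Low2 and High2 against High1 gave 0 of 41, beside 0.867%, 4.05% and 6.36% of all 346 miRNAs. High2 against Low1 had 1 of 41 beside 5.78%, and High1 against Low1 had 2 beside 3.18%. Low2 against Low1 had 2 beside 6.36%, and High against Low had 1 beside 1.16%. Counts this small were not read as a result about the list.

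The median log2 difference of the 41 was 0.09 for High2 against Low1, beside 0.04 over all miRNAs, and 0.01 for High against Low, beside 0.00. Between pools 8 of the 41 were called after adjustment and 15 had an unadjusted p under 0.05, shares close to those of the whole table.

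To see whether miRNAs known from particular tissues moved with the members, lists of them were summed in each library. That each is specific to its tissue was not tested. White blood cell miRNAs (miR-142, miR-150 and miR-223, 5 entries) summed to between 28.3 and 223.3 normalised reads with a median of 73.6. The highest sum was that of High1_4, the library with the most miR-146a and miR-146b. Within High2 the highest sum was 198.4, in High2_4, the library with the least miR-146a and miR-146b of all 39. The group medians of the white blood cell sum were 69.6 for High2 and 99.5 for High1, against 88.4 for Low2 and 66.6 for Low1. Within High1 it had r = 0.78 with miR-146a and 0.72 with miR-146b over 10 libraries, and r = -0.63 with miR-155. In the other groups r with miR-146a was -0.19 (High2), -0.14 (Low2) and 0.27 (Low1), with miR-146b -0.37 (High2), -0.19 (Low2) and 0.04 (Low1), and with miR-155 -0.08 (High2), -0.08 (Low2) and 0.04 (Low1). Over all 39 libraries r was 0.29 with miR-146a (permutation p = 0.0750), 0.23 with miR-146b (permutation p = 0.152) and -0.24 with miR-155 (permutation p = 0.145), each with an adjusted p of 0.387 over 21 relations. Without High1_5 and High1_4 these were 0.11 with miR-146a, -0.08 with miR-146b and -0.16 with miR-155. The part of white blood cells in the levels of the members was not tested.

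miRNAs of the other lists were detected as well. Epithelium miRNAs (miR-203 and miR-205, 6 entries) summed to between 10650 and 96515 normalised reads and nervous system miRNAs (miR-9 and miR-124, 8 entries) to between 7211 and 24158. Muscle miRNAs (6 entries) reached 2488, red blood cell and thrombocyte miRNAs (3 entries) 2760, endothelium and smooth muscle miRNAs (7 entries) 1317, and gonad and germ cell miRNAs (miR-34 and miR-202, 6 entries) 18852, with a minimum of 923. No list was at 0 in any library. Of the 21 relations between a member and a list, the one with the smallest p was miR-146a with epithelium (r = 0.34, permutation p = 0.0335, adjusted p = 0.387, rho 0.36), and none passed the adjustment. Large values of r within a single group were not particular to white blood cells. Examples were miR-146a with epithelium in High2 (0.71) and miR-146b with endothelium and smooth muscle in Low2 (-0.68). Another was miR-155 with red blood cells and thrombocytes in Low2 (0.62), and r within groups was not tested. The lists are of mature miRNAs known from other tissues and are no measure of purity, and their part in the members' levels was not tested.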

How the data were processed

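Small RNA of sperm was sequenced by the authors from individual males as single-end reads, 8 samples to a pool. After adaptor trimming they used PatMaN, with neither mismatch nor gap, to match reads to the zebrafish entries of miRBase, and counted them. The authors deposited log2 values, and DESeq2 is named for normalisation, in the submitters' processing notes too. How the log2 values were made is not given in the sources used here. The values were log2 of reads over a library size factor, plus 4, and 13494 of 13494 values gave whole reads (tolerance 0.02). The record names the build GRCz10 and the study another, and reads were matched to mature miRNAs only.

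Of 40 samples, 1 of Low2 has no column in the miRNA table and is not analysed here, and the piRNA table was not used. Groups followed sample titles and pools the sample descriptions. limma 3.58.1 in R 4.3.3 fitted all 39 libraries and 346 miRNAs with group as sole factor and a trend, two-sided, at a Benjamini-Hochberg threshold of 0.05, and was tested on simulated data. Permutation tests used 100000 resamples, or all arrangements for fewer than 10 pairs. Other computing used Python 3.11.15, numpy 2.4.6, scipy 1.17.1, pandas 2.3.3 and matplotlib 3.10.9.

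The members, lists and tests were chosen with earlier results of these data known. The named miRNAs were the members, the 5 most correlated with each, and listed families. The pool test, the marker correlations, and leaving out High1_4 or Low1_5 were chosen after seeing the data. Other alternatives were limma without the trend, limma-voom, centred libraries, a pseudocount of 1, dropping the lowest 25% of miRNAs, only the groups compared, pool as a covariate, a replicate block, the record's labels, libraries of at least 500000 reads, and High-first number 10 left out. Replicates are sperm samples of separate males within a group. By the study's design each male gave a first and a second sample. Outside the replicate block and the correlations of same-numbered samples, the tests treated all libraries as independent. Their p-values therefore measure the spread between libraries and take no account of a pairing by male.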

Additional observations from a re-analysis of the deposited data

Results flagged for a closer look

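One value stood apart from its group. miR-146b in High2_4 had a deposited log2 value of 11.98, or 4036 normalised reads, and its gap to the nearest other High2 library was 0.484 of the whole range of the group, above the critical value of 0.466 for 10 libraries in Dixon's test. In all, 20 groups of 4 to 10 values were tested in this way, and chance gives such a value in about 1 in 20 groups.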

How the results depend on the processing

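The 24 group results, 8 comparisons of 3 miRNAs, were recomputed under the alternatives to give 288 values, none with an adjusted p under 0.05 (0.623 to 1). Among the fold changes 16 changed sign, while the values of the 4-group test, also in the 288, have no sign. With the labels of the public record High2 against Low1 was 0.044 for miR-146b, High2 against Low2 was -0.048 for miR-146a and 0.23 for miR-146b, High2 against High1 was -0.11 for miR-146a and 0.071 for miR-155, and High against Low was 0.26 for miR-146b. With libraries of at least 500000 reads, miR-146a was -0.015 for High1 against Low1 and -0.070 for Low2 against Low1. In centred libraries miR-146a was -0.016 for both High2 against High1 and Low2 against Low1, and for High2 against High1 it was -0.038 without High-first number 10. Leaving out High1_4 or Low1_5 gave miR-146a from -0.084 to 0.104 for High1 against Low2, from -0.082 to 0.065 for High1 against Low1 and from -0.039 to 0.0019 for Low2 against Low1, and miR-146b from -0.0077 to 0.23 for High1 against Low2 and from -0.13 to 0.10 for High1 against Low1. The cause was not tested. Most of these values were near 0 beside intervals over 1 log2 unit wide. Between pools miR-146a passed at an adjusted p of 0.0483 by limma in centred libraries, and leaving out High1_4 or Low1_5 gave 0.0195 to 0.0573. Over all alternatives its adjusted p ran up to 0.592. Over all miRNAs, 65 were called between pools, 103 in centred libraries and 25 with pools by library number. High2 against High1 called 0 miRNAs, but 10 in libraries of at least 500000 reads and 9 with only those groups fitted, no member among them. Same-numbered samples deviated together in 4 of 9 High-first pairs and 2 of 10 Low-first pairs (r over 0.1), which does not show that the numbers are different males. Of the High1 libraries, 2 of 9 deviated most like the Low2 library of the same number. In the paper's principal component analysis, male identity had a substantial effect on miRNA profiles. The main comparisons did not take numbers as pairs, because the study's methods name treatment as the only fixed effect. With the replicate block, High2 against Low1 was 0.17, -0.37 and -0.48 (adjusted p 0.944, 0.784 and 0.916 by limma) and High1 against Low2 was 0.20, 0.28 and -0.17 for miR-146a, miR-146b and miR-155, with no call after adjustment. In the same libraries of at least 500000 reads, r between same-numbered samples changed sign to -0.0034 for miR-146b in High-first males and -0.22 for miR-155 in Low-first males. The negative binomial tests planned for deposited counts were left out, and limma-voom was the test run on the recovered reads.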

Other observations

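First and second samples with the same number were compared for each miRNA, on the assumption that a number is 1 male. For miR-146b in Low-first males r was 0.57 over 10 pairs (permutation p = 0.0909, rho 0.38), and -0.29 without the 2 pairs farthest from the median, so it rested on those. In High-first males r was 0.03 over 9 pairs (exact permutation p = 0.940, rho 0.07). For miR-146a r was -0.39 in High-first males (exact permutation p = 0.286, rho -0.48) and -0.24 in Low-first males (permutation p = 0.519, rho -0.19). For miR-155 it was -0.49 (exact permutation p = 0.1798, rho -0.43) and 0.01 (permutation p = 0.979, rho -0.03). Adjusted p over the 6 relations lay between 0.539 and 0.979.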
